A study of Mus musculus with 18 samples.

Results

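Gene expression in the RPE/choroid, the pigmented cell layer behind the retina with the vessel bed that feeds it, was compared between 30 days and 7 days after a single injection of dexamethasone (DEX) into the vitreous. The comparison rests on the 3 arrays titled DEX day 30 and the 3 arrays titled DEX day 7, 6 of the 18 arrays of the series, and covers all 45101 probe sets of the Affymetrix mouse genome array. A probe set is a group of short probes that reads 1 transcript, and several can read the same gene. All animals were C57BL6/J males, given by the labels as 2 months old, kept in 12 h light and 12 h dark. The DEX animals had received 10 μg of dexamethasone in 1 μL. Animals that received 25 μg of triamcinolone acetonide (TAA) and animals that received balanced salt solution (BSS), the solvent of both drugs, were collected on the same days, again with 3 arrays per group. According to the methods all animals were injected on 1 day, tissue was taken in the morning within 1 h, and the 3 of 4 animals with the best RNA quality were hybridized. The time since injection, the age of the animals and the collection session all differ between day 30 and day 7, and they cannot be told apart. Retina and sclera had been dissected away, and some choroid could remain on the RPE. No uninjected animals were analysed here.

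Glucocorticoids such as dexamethasone bind a receptor in the cell that switches genes on and off directly, among them the clock gene Per1. The circadian clock is a loop of transcription factors present in nearly all cells. The activators Bmal1 (gene Arntl), Clock and Npas2 turn on the Per, Cry and Nr1d genes, whose products then shut the activators down, so that Arntl peaks when the Per genes are low. Glucocorticoids in the eye are also known for matrix changes in the outflow tissue, which lead to steroid glaucoma.

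Values were deposited as log2, and each probe set had its median over the 18 arrays subtracted, so that a value of 0 is the middle of the series and no expression level is held. Whether a marker of a tissue is near background on an array therefore cannot be given. Array medians ranged over the series from -0.04 to 0.02, and no 2 arrays were identical. Single DEX arrays stood apart in markers of neighbouring tissues. The mean of 23 rod photoreceptor genes was -1.13, 0.08 and 2.99 on the DEX day 30 arrays and 1.16, 1.41 and -0.28 on the DEX day 7 arrays. For 14 genes of surface epithelia such as the cornea it was -1.35, 2.00 and -1.15 at day 30 and -1.49, 0.98 and 1.20 at day 7. For 8 fat cell genes 1 array was high, at 1.31 on DEX day 7 replicate 1. None of these lists separated the days, since the ranges of the 2 groups overlapped in each. The 5' minus 3' difference of the Gapdh control probes is a sign of RNA integrity. It was -0.89, 0.20 and 0.40 at day 30 and -0.19, 0.12 and -0.06 at day 7. Both ends are centred, so these values are only relative to the other arrays. For the Actb control they were -0.99, 0.638 and 0.465 at day 30 and -0.056, 0.255 and 0.353 at day 7. DEX day 30 replicate 1 was the lowest DEX array in both, and in the Tfrc control (-0.274). In such bulk tissue fewer cells of a type and less RNA per cell cannot be told apart.

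**Figure D1:**
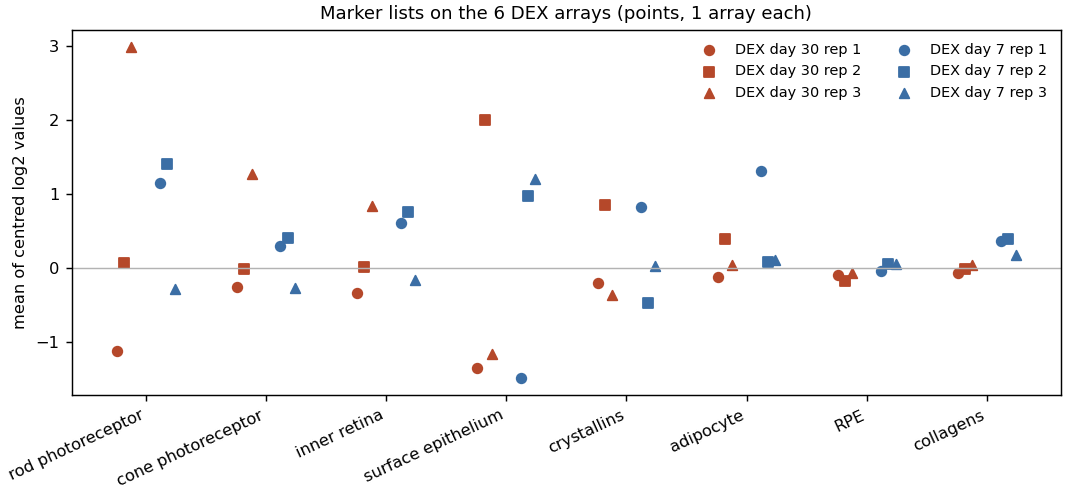
Mean of the centred log2 values of 8 marker lists (vertical axis) on each of the 6 DEX arrays, with DEX day 30 in red left of DEX day 7 in blue and the symbol giving the replicate. The rod list reached 2.99 on DEX day 30 replicate 3 and overlapped between the days, while the collagens lay at or below 0.04 at day 30 and at or above 0.18 at day 7.

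The clock genes led the comparison. In limma, a linear model fitted across all probe sets, 4 of the 45101 (0.00887%) had a Benjamini-Hochberg adjusted p below 0.05, and each of the 4 reads a clock gene. Counted by gene, these are 4 of 18194 (0.022%, and 0.011% in either direction). Arntl and Npas2 rose at day 30 (0.00443% of probe sets), and Per3 and Ciart fell (0.00443%). Without adjustment, 1690 probe sets (3.75%) had a p up to 0.05, against 2255 that chance alone gives over that many tests. The study's own thresholds combine an unadjusted p up to 0.05 with at least a 1.5-fold change, and 172 probe sets passed them (0.381%), with 47 higher (0.104%) and 125 lower (0.277%) at day 30. The 3 day 30 arrays lay wholly on 1 side of the 3 day 7 arrays in 7.86% of probe sets, above them in 3.14% and below them in 4.72%. The split moved to 124 higher and 137 lower when the columns were quantile normalized, a scaling under which 0 probe sets kept an adjusted p under 0.05 (smallest 0.085). The calls also ended in limma on the 6 DEX arrays alone (smallest adjusted p = 0.32), in the methods' t-test (1) and with the replicate number as a block (0.064). They ended as well without DEX day 30 replicate 2, without any 1 of the 3 DEX day 7 arrays, and, through the shared estimate of spread, without BSS day 7 replicate 3 or TAA day 30 replicate 1. Without DEX day 30 replicate 3, the array high in rod genes, Per3 alone was called.

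The promoters of Arntl, Per3 and Ciart are shown because these genes passed the test and carry short motifs known to bind clock factors. They run from 250 bases before to 50 bases after an annotated start in RefSeq (build GRCm38.p6), with the motifs in capitals. The Arntl window at the second of its 2 starts (chr7:113207261-113207560, plus strand) holds 1 ROR element core (TAGGTCA or TGGGTCA), the site of the Ror activators and the Nr1d repressors, 31 bases after the start. The Per3 window (chr4:151044616-151044915, minus strand) holds the D-box TTATGTAA, the site of Dbp, Tef, Hlf and Nfil3, at 205 and 158 bases before the start. The Ciart window (chr3:95882179-95882478, minus strand) holds the E-box CACGTG, the site of Bmal1 with Clock or Npas2, at 116, 58 and 44 bases before the start.
Arntl: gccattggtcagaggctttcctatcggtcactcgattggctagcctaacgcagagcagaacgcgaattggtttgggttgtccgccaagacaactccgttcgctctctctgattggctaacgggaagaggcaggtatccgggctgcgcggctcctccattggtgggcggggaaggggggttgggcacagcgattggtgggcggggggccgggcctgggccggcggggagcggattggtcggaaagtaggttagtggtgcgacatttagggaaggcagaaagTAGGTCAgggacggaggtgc
Per3: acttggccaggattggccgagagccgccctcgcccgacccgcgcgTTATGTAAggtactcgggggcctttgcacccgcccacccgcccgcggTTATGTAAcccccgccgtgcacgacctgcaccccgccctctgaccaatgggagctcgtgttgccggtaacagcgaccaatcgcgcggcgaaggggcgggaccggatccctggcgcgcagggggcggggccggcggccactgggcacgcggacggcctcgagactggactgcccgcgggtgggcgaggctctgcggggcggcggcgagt
Ciart: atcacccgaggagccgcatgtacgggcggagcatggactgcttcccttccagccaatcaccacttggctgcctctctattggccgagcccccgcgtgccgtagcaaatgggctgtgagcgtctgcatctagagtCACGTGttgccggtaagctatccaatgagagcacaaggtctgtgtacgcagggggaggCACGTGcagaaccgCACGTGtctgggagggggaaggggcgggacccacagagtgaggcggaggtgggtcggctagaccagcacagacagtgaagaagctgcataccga
Both strands were searched. Of all 32851 promoter windows of this length, 7.15% hold the E-box, 4.68% its variant CACGTT, which differs from it in the last letter, 6.45% the ROR core and 1.06% a D-box (TTATGTAA or TTACGTAA). Of the 33 clock genes measured, 28 have a window in the table. Among 9 clock repressor genes 5 hold an E-box, 3 the variant and 1 a D-box, and among 6 activator genes 2 (Arntl and Nfil3) hold the ROR core and 0 an E-box. Among 13 output and modifier genes 2 hold an E-box, 2 the variant and 1 a D-box. A gene with several starts has several windows, so that these shares are per gene and the shares over all promoters per window. Npas2 held none of these motifs in its window, and none of the 28 genes held the full glucocorticoid response element (0.475% of all windows). These matches describe letters in a window and were not tested for binding.

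Of 6 clock activators and positive factors measured, 3 passed the study's thresholds, all with higher values (0.22% of all genes passed upwards), and 2 of them were called. The median log2 fold change of the list, each gene taken as the mean of its probe sets, was 0.63 against -0.01 over all 18194 genes, and the arrays of day 30 and day 7 did not overlap in 4 of the 6 genes (3.14% of all genes lay wholly higher). Arntl, whose product Bmal1 is the indispensable activator of the loop, had values of 0.40, 0.97 and 1.14 on the DEX day 30 arrays and -0.89, -0.77 and -1.42 on the DEX day 7 arrays. Every day 30 array lay above every day 7 array. The difference was 1.86 on the log2 scale (SE 0.25, adjusted p = 0.028, limma), a 3.64-fold higher value at day 30. Npas2, a partner of Bmal1 that can stand in for Clock, had 0.79, 1.53 and 1.06 at day 30 and -0.63, -0.69 and -0.89 at day 7, again with no overlap. The difference was 1.86 (SE 0.25, adjusted p = 0.028), a 3.63-fold higher value. A second probe set of either gene went the same way by less, with 0.34 (SE 0.10) for Arntl and 0.29 (SE 0.13) for Npas2. Nfil3 represses D-box genes and is placed here with the positive factors because its gene is driven through the ROR element, as Arntl is. It had 0.19, 0.92 and 0.02 at day 30 and -0.74, -0.25 and -0.65 at day 7. The groups did not overlap, and the difference of 0.92 (SE 0.20) had an adjusted p of 0.45. Clock itself differed by 0.38 (SE 0.12, adjusted p = 1), under the fold threshold, with 4 of its 4 probe sets between 0.26 and 0.38. Arntl2 had 0.05 as the mean of its 2 probe sets, with overlap. Rora, an activator that binds the ROR element, was the 1 gene of the list with a lower value, -0.20 as the mean of 9 probe sets. Its probe set of largest difference had -0.43, -0.26 and 0.05 at day 30 and 0.30, 0.23 and 0.35 at day 7, with no overlap, a difference of -0.51 (SE 0.18, adjusted p = 1) under the fold threshold.

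The 11 genes listed as repressors, Nfil3 not among them, all had lower values at day 30, where 54.4% of all genes did. Of these, 6 passed the study's thresholds (0.561% of all genes passed downwards), 9 lay wholly below day 7 (4.83% of all genes), and the median was -0.45. Array-median centring, quantile normalization and leaving out DEX day 30 replicate 1 or DEX day 7 replicate 3 each turned 1 of the 11, and 10 of 11 were lower in each. Per3, a period gene, had -0.44, -0.79 and -0.30 at day 30 and 0.47, 0.54 and 0.40 at day 7. All day 30 arrays lay below all day 7 arrays. The difference was -0.98 (SE 0.12, adjusted p = 0.028), a 1.97-fold lower value at day 30. The call rests on 1 of 6 probe sets annotated to Per3, and the other 5 had -0.60, -0.39, -0.28, 0.09 and 0.11, none called, so that the mean over all 6 was -0.34 (SE 0.10) and not called. Ciart, which binds Bmal1 and represses it, had -0.38, -0.62 and -0.48 at day 30 and 0.41, 0.49 and 0.47 at day 7. Its difference was -0.94 (SE 0.13, adjusted p = 0.035), a 1.92-fold lower value, from its 1 probe set.

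The other repressors did not pass the adjusted test. Per2 had -0.94, -1.63 and -0.60 at day 30 and 0.57, 0.37 and 0.15 at day 7. This was the widest gap of the repressors, -1.42 (SE 0.26, adjusted p = 0.18), but 2 further probe sets had 0.06 and -0.12. Nr1d2, 1 of the pair of Rev-erb receptors that repress Arntl through the ROR element, had -0.36, -0.79 and -0.48 at day 30 and 0.38, 0.29 and 0.23 at day 7, a difference of -0.84 (SE 0.14, adjusted p = 0.11), and a second probe set differed by -0.84 (SE 0.21). Taken as the mean of both, Nr1d2 was called in a fit with 1 value per gene (adjusted p = 0.028). Its partner Nr1d1 had -0.24, -0.28 and -0.17 at day 30 and 0.50, 0.33 and 0.84 at day 7, a difference of -0.79 (SE 0.17, adjusted p = 0.45). Per1, which is both a clock gene and a direct glucocorticoid target, had -0.52, -0.35 and 0.06 at day 30 and 0.37, 0.45 and 0.32 at day 7, a difference of -0.65 (SE 0.18, adjusted p = 0.90). Every day 30 array thus lay below every day 7 array in Per1. Cry2 and Bhlhe40 had -0.35 (SE 0.12) and -0.45 (SE 0.18), under the fold threshold. Cry1, Cipc and Bhlhe41 had -0.16, -0.12 and -0.01 as the means of their probe sets.

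Of 16 measured output and modifier genes, 5 passed the study's thresholds with lower and 1 with higher values (0.561% and 0.22% of all genes), with a median of -0.17. The D-box binding factors Dbp and Tef, direct targets of the loop, had -0.93 (SE 0.21) and -0.77 (SE 0.18), and their relative Hlf -0.53 (SE 0.17). As means of their probe sets, Dbp had -0.69, Tef -0.48 and Hlf -0.52. Dbp had -0.59, -0.31 and -0.22 at day 30 and 0.42, 0.52 and 0.72 at day 7, with the groups apart. Wee1, a kinase that delays mitosis and is driven by the clock, differed by -0.60 (SE 0.11, adjusted p = 0.14), and its second probe set by -0.24 (SE 0.09). Inmt, which methylates indole amines, had -0.40, -0.29 and -0.37 at day 30 and 0.97, 0.82 and 0.55 at day 7, a difference of -1.13 (SE 0.18, adjusted p = 0.091). The monooxygenase Fmo2 had -1.08 (SE 0.32) in 1 probe set, but -0.41 as the mean of its probe sets. The 1 gene with a higher value at the thresholds was Ppp1r3c, which directs a phosphatase to glycogen, with 0.05, 0.88 and 0.69 at day 30 and -0.56, -0.76 and -0.62 at day 7 (difference 1.19, SE 0.35, adjusted p = 1). A second Ppp1r3c probe set had -0.06 (SE 0.10), with overlap between the days. Over the 33 clock genes, 15 passed the study's thresholds, where 0.22% of all genes passed upwards and 0.561% downwards. The gene means of 21 did not overlap between the days, where those of 3.14% of all genes lay wholly higher and of 4.83% wholly lower. The 30 genes named for their difference were the called genes, filled from those at the thresholds without overlap between the days. Of these 30, 9 were on the clock lists, which hold 33 of the 18194 genes. Some of the clock genes were singled out by the study from the same arrays. The lists were also chosen with earlier results of these data known. The counts are therefore no independent evidence of a direction or of a concentration of clock genes.

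**Figure D2:**
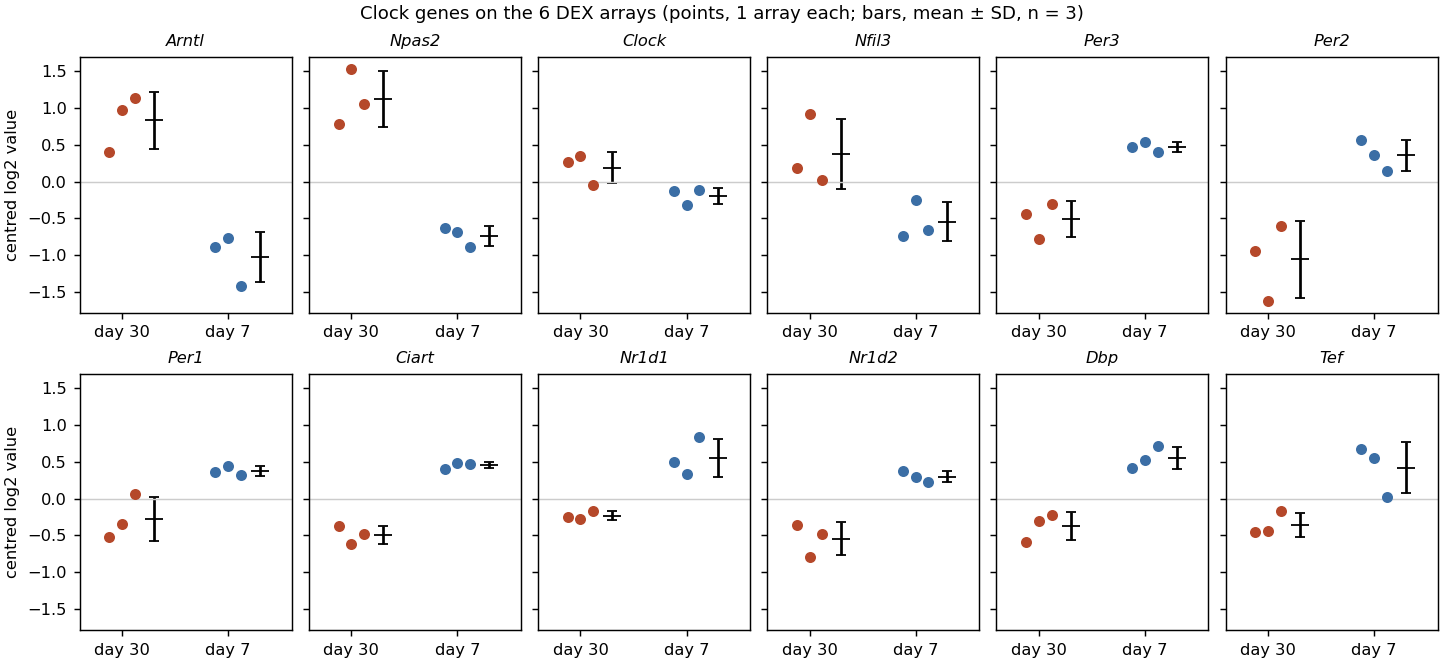
Centred log2 values (vertical axis) of 12 clock genes on the 3 DEX day 30 arrays (red, left) and the 3 DEX day 7 arrays (blue, right), with bars for the mean ± SD of each group. In each of the 12 panels all day 30 points lie on 1 side of all day 7 points. They lie above them for Arntl, Npas2, Clock and Nfil3 and below them for the other 8. These 12 were chosen from the 33 clock genes, and 7.86% of all probe sets showed no overlap.

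The change in the clock genes was set against that after the other injections, which share no array with the DEX groups. The difference in Arntl was 1.86 after DEX, 1.43 (SE 0.25, adjusted p = 0.22) after TAA and 2.25 (SE 0.25, adjusted p = 0.0069) after BSS, where it was the 1 probe set called (0.00222%). The DEX difference less that after BSS was -0.38, with a 95% confidence interval of -1.13 to 0.36, and less that after TAA 0.43 (-0.31 to 1.18). For Npas2 these differences of differences were 0.54 (-0.22 to 1.29) against BSS and 0.19 (-0.56 to 0.94) against TAA. For Per3 they were -0.32 (-0.69 to 0.05) and -0.23 (-0.61 to 0.14). Ciart had -0.94 after DEX, -0.53 (SE 0.13) after TAA and -0.57 (SE 0.13) after BSS. In Ciart the DEX difference less that after TAA was -0.42 (-0.81 to -0.02, adjusted p = 1), and less that after BSS -0.38 (-0.78 to 0.02). These genes were called on the DEX difference, so the intervals reuse the values that chose them. The doses of the 2 steroids differ, 10 μg and 25 μg, and their values stand side by side only.

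Of the 172 probe sets at the study's thresholds after DEX, 159 (92.4%) differed in the same direction between the days after BSS and 164 (95.3%) after TAA, against 59.9% and 59.1% of all probe sets. Across all probe sets, limma called 0 for a difference between the DEX and the BSS change (smallest adjusted p = 0.9997, with 1339 or 2.97% at an unadjusted p up to 0.05). For DEX and TAA the count was also 0 (716 or 1.59% unadjusted). Without BSS day 30 replicate 2 there was 1 call against BSS. None of the 4 called genes differed between DEX and BSS at 1 time point at this adjustment either, and for Arntl DEX less BSS was -0.04 (SE 0.25) at day 30 and 0.34 (SE 0.25) at day 7. At the study's thresholds day 30 differed from day 7 in 1383 probe sets (3.07%) after BSS and in 323 (0.716%) after TAA. Retinal markers moved with these counts: the rod list had a median of -0.07 after DEX, 1.25 after TAA and 2.82 after BSS, and its mean was 3.26, -0.45 and 3.12 on the BSS day 30 arrays and -1.06, -0.74 and -0.47 on the BSS day 7 arrays. Their part in the counts was not tested.

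**Figure D3:**
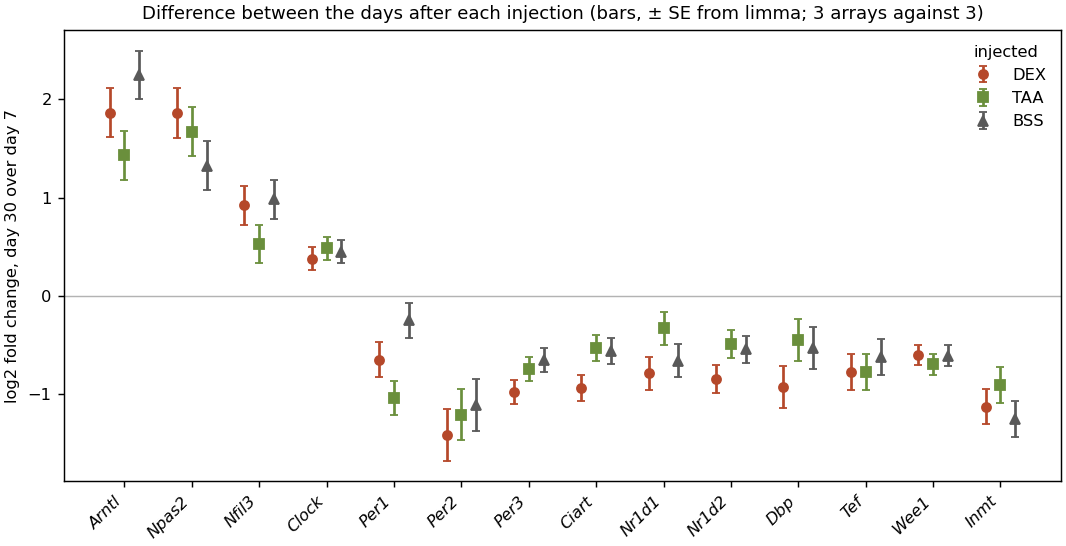
Log2 fold change of day 30 over day 7 (vertical axis) for 14 genes of the clock lists, Inmt of the output list among them. Red circles are DEX, green squares TAA and grey triangles BSS, with bars for ± SE from limma over 3 arrays against 3. The 4 activators and positive factors lie above 0 and the other 10 genes below 0 after every injection. These 14 genes were chosen for the figure and do not stand for all clock genes. Of all 85 clock probe sets, 70.6% differed in the same direction after BSS as after DEX, against 59.9% of all probe sets. After TAA it was 77.6%, against 59.1%.

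Genes of the collagen-rich matrix had lower values at day 30. Of 16 fibrillar and network collagens all 16 were lower (54.4% of all genes were), 6 passed the study's thresholds downwards (0.561% of all genes), 8 lay wholly lower (4.83% of all genes), and the median was -0.27. None passed the adjusted test. Leaving out 1 DEX array at a time kept 14 to 16 of the 16 below 0 and 3 to 7 at the thresholds, and the lowest count, 3, was without DEX day 7 replicate 2. Col1a2, a chain of type I collagen, had -0.21, -0.03 and 0.02 at day 30 and 0.87, 0.89 and 0.38 at day 7, a difference of -0.78 (SE 0.24). Its 3 probe sets averaged -0.25 (SE 0.19). Col3a1, the type III chain, had -0.83 (SE 0.36), Col14a1, which links fibrils, -0.73 (SE 0.22) and Col5a2, which sets fibril width, -0.64 (SE 0.24). These values are of the probe set of largest difference in each gene, and the lowest gene mean of the list was -0.70. Of the collagens of basement membranes, Col4a1 had -0.13 (SE 0.19) and Col18a1 -0.07 (SE 0.16), and they were not tested against the fibrillar chains. After TAA and BSS the medians of the list were -0.13 and -0.43.

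Of 12 genes that follow steroids in the outflow tissue or build its matrix, 3 passed the study's thresholds, all with lower values (0.561% of all genes), and the median was -0.23. It was -0.38 without DEX day 7 replicate 1 and -0.40 without DEX day 30 replicate 2, against -0.11 without DEX day 7 replicate 2 and -0.14 without DEX day 30 replicate 1. Angptl7, a secreted protein of the cornea and outflow tissue that glucocorticoids raise in human outflow cells, had -0.77, -0.07 and -0.03 at day 30 and 1.07, 0.83 and 0.94 at day 7. The groups did not overlap, and the difference was -1.24 (SE 0.31, adjusted p = 0.77). Fibin, a secreted protein, had -0.12, -0.38 and -0.31 at day 30 and 0.61, 0.91 and 0.61 at day 7, a difference of -0.98 (SE 0.15, adjusted p = 0.087), and was called in the fit with 1 value per gene (adjusted p = 0.048). Prg4, the lubricant of joint and eye surfaces, had -0.99 (SE 0.33). Angptl7 had -1.26 (SE 0.31) after TAA and -1.31 (SE 0.31) after BSS, and Fibin -0.75 (SE 0.15) and -0.94 (SE 0.15). These genes thus lay lower at day 30 after the solvent as well. Of 18 further stromal matrix genes 3 passed downwards (0.561% of all genes), Postn at -1.01 (SE 0.34), Dpt at -0.67 (SE 0.31) and the fibronectin gene Fn1 at -0.62 (SE 0.27), while the proteoglycans Dcn and Lum had -0.11 and -0.46. The count fell to 1 without DEX day 7 replicate 1, DEX day 7 replicate 2 or DEX day 30 replicate 1, and Fn1 had -0.35 without DEX day 30 replicate 1. Postn, made by fibroblasts at sites of repair, had 0.01 (SE 0.34) after TAA and -0.77 (SE 0.34) after BSS. Among 12 matrix proteases the 1 gene at the thresholds was Adamts4, which cuts aggrecan, higher by 0.68 (SE 0.19, where 0.22% of all genes passed upwards).

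Of 25 genes that respond to glucocorticoids, 2 passed the study's thresholds with higher and 2 with lower values (0.22% and 0.561% of all genes), with a median of -0.04. Tsc22d3, the leucine zipper gene that glucocorticoids raise in most cells, had -0.36, -0.48 and -0.19 at day 30 and 0.50, 0.66 and 0.51 at day 7. This was a difference of -0.90 (SE 0.25, adjusted p = 0.90) in its probe set of largest difference. The same probe set had -1.33 (SE 0.25) after TAA and -0.75 (SE 0.25) after BSS. The lowest gene mean of this list was -0.65, so Tsc22d3 lay nearer to 0 as the mean of its probe sets. Per1, described above, was the other lower gene. Pdk4, a kinase that holds back glucose use in fasting and after glucocorticoids, had 0.36, 1.12 and 0.90 at day 30 and -0.43, -0.54 and -0.11 at day 7, a difference of 1.15 (SE 0.34, adjusted p = 1). It had 0.67 (SE 0.34) after TAA and 0.00 (SE 0.34) after BSS. The DEX difference exceeded that after BSS by 1.15 (0.13 to 2.18, adjusted p = 0.9997 in limma). Pdk4 was named for its large DEX difference, so this interval reuses the values that chose it. Angptl4, a lipase inhibitor induced by fasting, differed by 0.69 (SE 0.23). Fkbp5, a widely used marker of glucocorticoid exposure, had -0.04 (SE 0.17). The 25 genes had no common direction, with 15 lower and 10 higher. Of 10 genes that follow body temperature and feeding, Pdk4 and Angptl4 passed upwards (0.22% of all genes). The cold-induced Cirbp (-0.62, SE 0.18) passed downwards (0.561% of all genes), and 6 heat shock genes had values between 0.01 and 0.35. Of 15 immediate early genes 1 passed, downwards (0.561% of all genes). Ptgs2, the inducible prostaglandin synthase, had -0.64, -0.81 and -0.68 at day 30 and 0.32, 0.24 and 0.17 at day 7. This was a difference of -0.95 (SE 0.24) in its probe set of largest difference. The same probe set had -1.31 (SE 0.24) after TAA and -1.26 (SE 0.24) after BSS. The lowest gene mean of the immediate early list was -0.48, so Ptgs2 lay nearer to 0 as the mean of its probe sets.

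**Figure D4:**
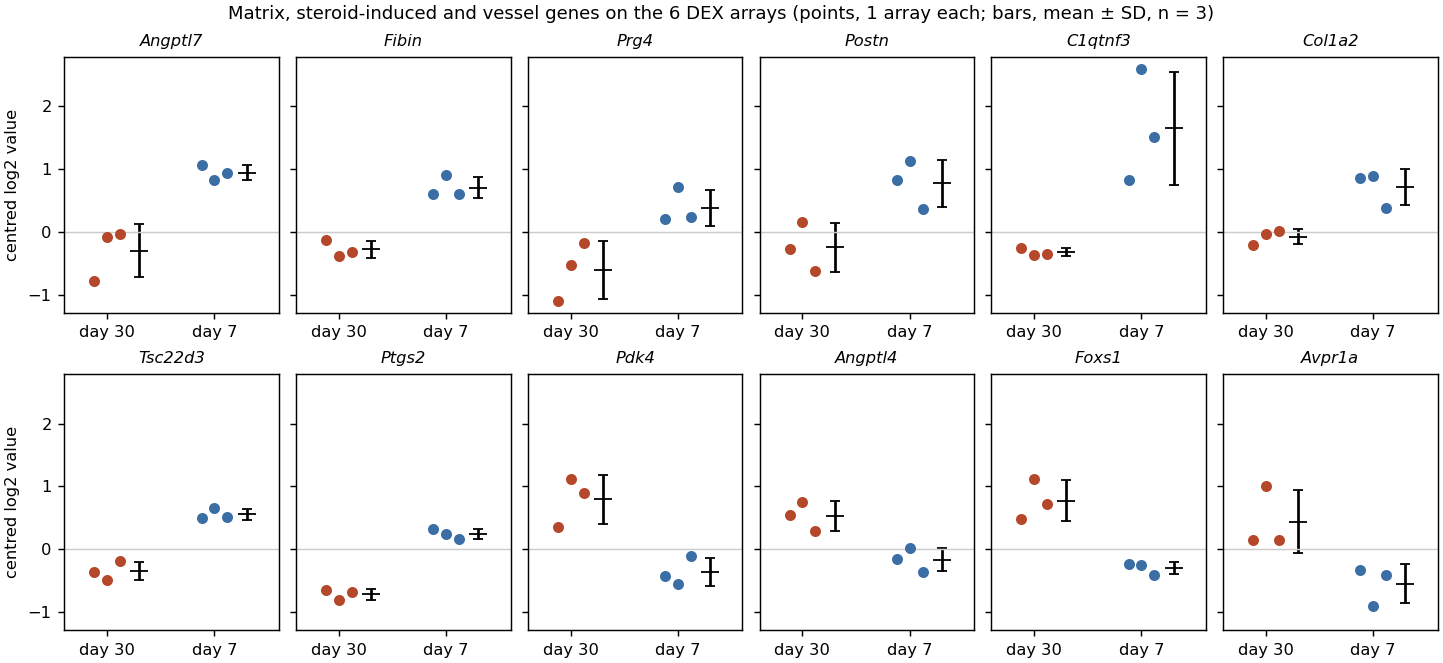
Centred log2 values (vertical axis) of 12 genes of matrix, steroid response and vessels on the 3 DEX day 30 arrays (red, left) and the 3 DEX day 7 arrays (blue, right), with bars for the mean ± SD of each group. In each panel the groups do not overlap, with day 30 lower for 8 genes and higher for Pdk4, Angptl4, Foxs1 and Avpr1a. The panels were chosen, and lack of overlap was part of the rule by which some of these genes were named. Over all probe sets, 7.86% showed no overlap.

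Further genes are those with the largest differences among probe sets that passed the study's thresholds with no overlap between the days, and none of them passed the adjusted test. Genes with wider spread could differ by more, such as the embryonic myosin Myh3 at 1.37 (SE 0.67, groups overlapping). Foxs1, a forkhead factor of cells around vessels, had 0.48, 1.12 and 0.72 at day 30 and -0.23, -0.25 and -0.41 at day 7. The groups did not overlap and the difference was 1.07 (SE 0.17, adjusted p = 0.091). It was 0.64 (SE 0.17) after TAA and 0.13 (SE 0.17) after BSS. The DEX difference exceeded that after BSS by 0.94 (0.43 to 1.46, unadjusted p = 0.0014 in limma, adjusted p = 0.9997). Foxs1 was named for its large DEX difference, so this interval reuses the values that chose it. The membrane protein Tmem45a had 1.02 (SE 0.17, adjusted p = 0.11) and the vasopressin receptor Avpr1a, found on smooth muscle, 0.98 (SE 0.24). Galr2, a galanin receptor, Asb2, part of a ubiquitin ligase, Gdf10, a ligand of the TGF-β family, the homeobox gene Prrx2, the matrix protein Spon2, the meiosis gene Tex15 and the ubiquitin ligase Rnf182 lay between 0.79 and 0.91. On the lower side C1qtnf3, a secreted relative of adiponectin, had -0.24, -0.36 and -0.35 at day 30 and 0.83, 2.60 and 1.52 at day 7, a difference of -1.97 (SE 0.45, adjusted p = 0.60). The 3 day 30 arrays lay close together and the day 7 arrays did not, so that the size depends on DEX day 7 replicate 2, without which it was -1.49. Aplnr, the apelin receptor of endothelium, differed by -1.82 (SE 0.68) and Cldn11, a tight junction protein, by -1.64 (SE 0.64). Upk3b, a uroplakin, the kinase Prkx, the gastrokine Gkn3, Cd47, which restrains phagocytes, and the angiopoietin relative Angptl1 lay between -1.35 and -1.03. The Gkn3 probe set is of a type that can also bind other transcripts.

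Among the cell types and functions of the tissue few genes moved past the thresholds. Of 20 RPE genes 17 had lower values (54.4% of all genes did), with a median of -0.10 against -0.01 over all genes. Of these, 1 passed downwards (0.561% of all genes). Trpm3, a cation channel of the RPE, had -0.77, -0.22 and -0.43 at day 30 and 0.38, 0.19 and 0.49 at day 7. This was a difference of -0.83 (SE 0.15, adjusted p = 0.14) in its probe set of largest difference. The lowest gene mean of the RPE list was -0.41, so Trpm3 lay nearer to 0 as the mean of its probe sets. The mean of the 20 genes lay between -0.17 and -0.06 at day 30 and between -0.04 and 0.06 at day 7. The retinoid isomerase Rpe65 differed by -0.08 (SE 0.11), and of 16 genes of the visual cycle and phagocytosis 0 passed. Of 16 macrophage genes 1 passed upwards (0.22% of all genes), the complement chain C1qb. It passed through 1 probe set at 0.78 (SE 0.33) that can also bind other transcripts and whose arrays overlapped. Of 16 genes of VEGF signalling and vessel growth 1 passed downwards (0.561% of all genes), the endothelin Edn3 at -0.61 (SE 0.24), also with overlap. Smooth muscle genes had a median of 0.10 with 11 of 14 higher (45.6% of all genes were), and it was -0.02 without DEX day 30 replicate 2. For 14 endothelial genes the median was -0.11. The mean of 8 complement genes lay between -0.19 and 0.08 at day 30 and between 0.10 and 0.22 at day 7, with no single gene at the thresholds.

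In 23 of the 36 lists no gene passed the study's thresholds. They include rod and cone photoreceptors (medians -0.07 and 0.20), inner retina, MHC class II, interferon response, complement, acute phase proteins, chemokines, lens crystallins, skeletal muscle, fat, blood and cell cycle genes. The spread between arrays was wide in the retinal and corneal lists. The rod gene Gnat1 had -2.68, 0.40 and 3.89 at day 30 and 1.72, 2.03 and -0.40 at day 7, a difference of -0.58 with an SE of 1.86. The corneal keratin Krt12 had -0.05, 8.83 and -0.47 at day 30 and 0.49, 6.68 and 4.36 at day 7 (SE 2.25). Differences in such genes were not detectable with this spread. With the rod score of each array as a covariate, the differences were 1.88 for Arntl, 1.86 for Npas2, -0.97 for Per3 and -0.95 for Ciart, and all 4 were called.

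**Figure D5:**
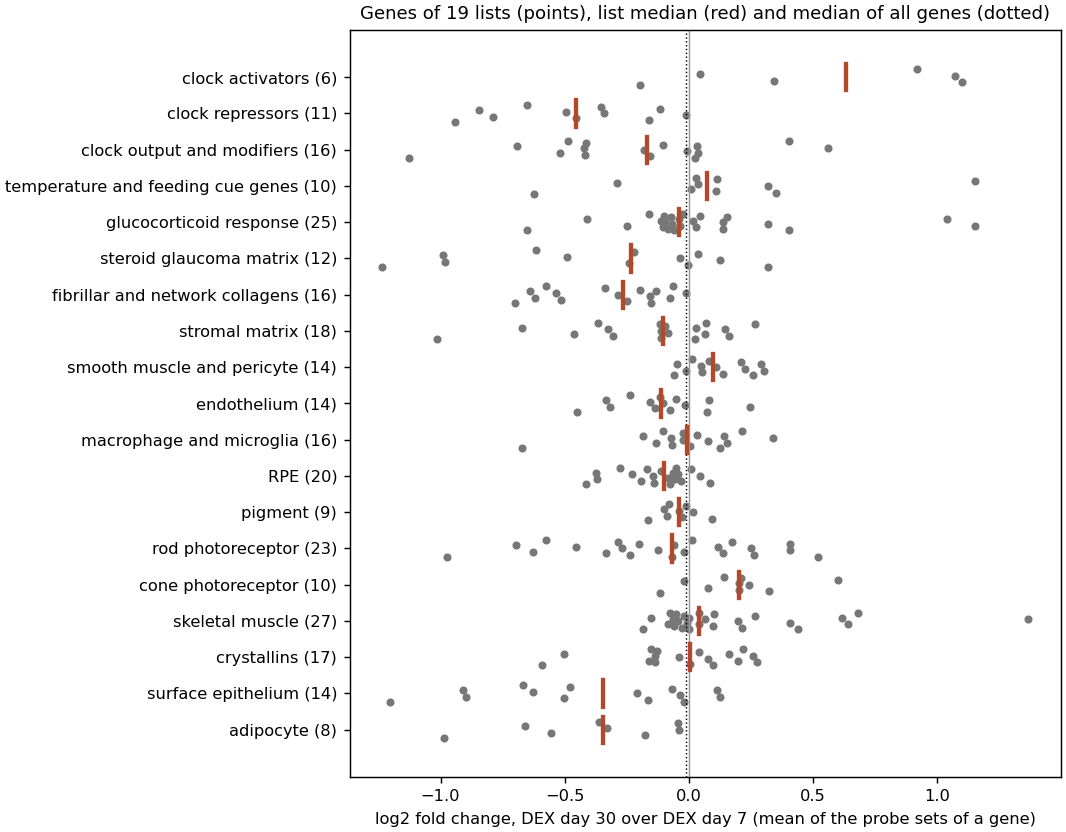
Log2 fold change of DEX day 30 over DEX day 7 (horizontal axis) for each gene of 19 lists (grey points, mean of the probe sets of a gene), with the median of each list as a red bar, the median of all 18194 genes as a dotted line and the number of genes measured in brackets. The clock activators, a list that also holds Nfil3, have the highest median, 0.63, and the clock repressors the lowest, -0.45. All 16 collagens lie left of 0. The lists were chosen with earlier results of these data known.

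Of all genes Saa3 had the lowest p for a difference between the DEX and TAA changes, although genes with wider spread, such as Krt12, lay farther apart. This acute phase gene had -0.66, -0.54 and -0.26 on the TAA day 30 arrays and 2.84, 1.92 and 2.73 on the TAA day 7 arrays, a difference of -2.98 (SE 0.30, adjusted p = 0.0017), the 1 probe set called after TAA (0.00222%). It had 0.22, -0.11 and -0.21 on the DEX day 30 arrays and 0.94, 0.44 and 0.02 on the DEX day 7 arrays, a difference of -0.50 (SE 0.30). After BSS the difference was 0.13 (SE 0.30). The DEX difference less that after TAA was 2.48 (95% interval 1.59 to 3.38, unadjusted p = 2.5e-05), with an adjusted p of 1 over all probe sets. The next lowest p-values against TAA were those of Gzmc, C130046K22Rik, Dek and Mbd1, with 0.60, 0.45, -0.41 and 0.93. Against BSS they were those of Aen (-0.64), Pcdh17 (-1.59), Gtf3c1 (-0.80), Ebf2 (0.84) and Sertm1 (-0.56). Gtf3c1, a subunit of a factor for RNA polymerase III, had -0.21, -0.38 and -0.63 at day 30 and 0.30, 0.41 and 0.69 at day 7 after DEX, a difference of -0.87 (SE 0.13, adjusted p = 0.082), and -0.07 (SE 0.13) after BSS.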

How the data were processed

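RNA of RPE/choroid was hybridized to Affymetrix mouse genome arrays, 1 animal per array. By the methods, the authors ran RMA in GeneSpring and then took the median over all samples off each probe set. The deposited log2 values cover 45101 probe sets, and the submitters' processing notes name RMA without a version. The largest median of a probe set in the file was 5e-07. The number of arrays, 3 per group, limits the precision. No filter on weak signals could be applied to centred values.

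Probe sets were named from the platform annotation, with 34958 of 1 gene, 932 of several and 9211 unnamed here. Those of several genes named none. A limma model (version 3.58.1, R 4.3.3, with eBayes) fitted 6 group means over all 18 arrays, with 12 residual degrees of freedom and 3.29 from the prior. Two-sided p-values were corrected over all probe sets with the Benjamini-Hochberg procedure. The comparisons were DEX day 30 against day 7 and the difference of this change from that after BSS and after TAA. p-values measure the spread between the animals of 1 experiment. For a list of genes, those called or at the thresholds were counted by any probe set of the gene alone. Direction, overlap and the median were taken from gene values, each the mean of its probe sets. The 36 lists held 516 genes, of which 470 were measured, and the others are not analysed here. Whether motifs lay in a promoter was read from both strands. The members and the lists were chosen with earlier results of these data known.

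Genes were named by a rule: the 15 with the largest difference in each direction among those called, filled from those at the study's thresholds whose arrays did not overlap, all clock genes, up to 4 genes per other list among those at the thresholds (the first 3 of a list where none passed), and the 5 of lowest p in the comparisons with BSS and TAA. For a gene named from a list, the value is that of its probe set of largest difference unless a mean is stated. Further list members are given as values. Names and promoter windows came from RefSeq tables of GRCm38.p6. The script was tested on simulated data. Figures were drawn in Python 3.11.15 with matplotlib 3.10.9. Alternatives were the 6 DEX arrays alone, the methods' t-test, array weights, a robust prior, array-median and quantile scaling, probe sets of 1 gene, 1 value per gene, the replicate number as a block, the rod score as a covariate, and leaving out each array.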

Additional observations from a re-analysis of the deposited data

How the results depend on the processing

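The 4 called probe sets stayed at 4 with array weights, a robust prior, array-median scaling or probe sets of 1 gene, and were among 5 with the rod score as a covariate. With 1 value per gene 5 genes were called, 3 of the 4 among them, and 66 genes passed the study's thresholds. There were 0 calls in limma on the 6 DEX arrays alone (smallest adjusted p = 0.32, 1373 at an unadjusted p of 0.05 or less), in the methods' t-test (smallest adjusted p = 1, 1670 unadjusted, 144 at the study's thresholds) and after quantile normalization (smallest adjusted p = 0.085, 2012 unadjusted, 261 at the thresholds, against 172). Leaving out 1 array at a time gave 0 to 8 calls, with 8 without BSS day 30 replicate 1, and 168 to 294 probe sets at the thresholds, with 294 without DEX day 30 replicate 1 and 267 without DEX day 30 replicate 2. It gave 0 to 1 calls for DEX against BSS and 0 for DEX against TAA. The cause of these changes was not tested. With the replicate number as a block there were 0 calls (smallest adjusted p = 0.064) and 175 at the thresholds. The deviations of the DEX arrays with the same number correlated at 0.21, 0.07 and -0.54, and 13 of 45 same-number pairs of the series lay over 0.1. With 3 arrays per group such correlations cannot decide whether the numbers carry a pairing. Of the 148 named genes, 67 had an unadjusted p of 0.05 or less, and all 67 kept their sign in all 28 alternatives. They were taken by p from these same arrays. Alternatives that alter only the estimate of spread, or leave out a BSS or TAA array, cannot change the difference of a probe set. The kept signs are therefore no independent check. Arntl, Npas2 and Per3 were each called in 17 of the 28 and Ciart in 12. The median of the glucocorticoid list ran from -0.06 to 0.01 over the alternatives, and the medians of the clock lists, the collagens and the steroid glaucoma list kept their sign. With 3 arrays against 3, an exact permutation of 1 gene cannot go below p = 0.1, and the centred values do not tell weak from strong signals.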
